A study of Homo sapiens with 6 samples.

Results

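Huh7 cells, a line of human hepatocellular carcinoma, were compared by RNA sequencing after lentiviral infection, with 3 libraries of cells overexpressing VPS72 and 3 libraries of FLAG control cells. The VPS72 cells carry the label VPS72 overexpression and the FLAG cells the label WT. Both groups were grown in DMEM with fetal bovine serum and exposed for 24 h to virus packaged in HEK293T cells, so the controls share the infection. VPS72 is a subunit of chromatin complexes that handle the histone variant H2A.Z. The labels name a single cell line, and no source used here gives the promoter of the VPS72 construct. The genes described are 10 targets of the stress transcription factor ATF4, picked by symbol from the 37822 genes of the count table for their role in making serine, asparagine and mitochondrial one-carbon units, with CHAC1 and TRIB3 added. All 10 had a row in the table, and 9 passed a filter on low counts into the test, with ALDH1L2 left out by it.

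ATF4 is translated when the initiation factor eIF2 alpha is phosphorylated, for example under amino acid shortage or endoplasmic reticulum stress. It pairs with C/EBP factors on composite DNA elements of stress-induced genes. PHGDH, PSAT1 and PSPH convert the glycolytic intermediate 3-phosphoglycerate to serine in sequence. SHMT2 and MTHFD2 then pass a carbon from serine to folate inside mitochondria, and ASNS makes asparagine from aspartate and glutamine. CHAC1, which degrades glutathione, and TRIB3, a pseudokinase that feeds back on the stress response, are commonly read as markers of ATF4 activity.

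ATF4 acts through the C/EBP-ATF composite element, and the promoters that hold it are shown for that reason. The genes were picked as ATF4 targets, so finding the element in them is a description and no independent result. RefSeq promoters of GRCh38.p14, from 250 bases before to 50 bases after a start site, were matched for 7 of the 10 genes by symbol. The letters TGATGNAA were searched on both strands. They were found in 2 of 10 promoters of these genes, 1 of ASNS and 1 of CHAC1, against 3.62% of all 35116 promoters in the RefSeq table. The matches are in capitals, 5′ to 3′ on the strand of the gene. The ASNS promoter is chr7:97872359-97872658 on the minus strand, with the match 68 to 61 bases before the start site. The CHAC1 promoter is chr15:40953221-40953520 on the plus strand, with the match 209 to 202 bases before the start site and read as TGATGNAA on the opposite strand.
ASNS promoter: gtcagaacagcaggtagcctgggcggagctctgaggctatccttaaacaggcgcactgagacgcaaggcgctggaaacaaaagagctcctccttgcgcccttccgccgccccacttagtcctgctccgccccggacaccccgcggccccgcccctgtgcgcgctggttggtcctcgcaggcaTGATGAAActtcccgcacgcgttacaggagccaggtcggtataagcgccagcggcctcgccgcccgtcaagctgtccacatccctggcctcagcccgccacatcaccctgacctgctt
CHAC1 promoter: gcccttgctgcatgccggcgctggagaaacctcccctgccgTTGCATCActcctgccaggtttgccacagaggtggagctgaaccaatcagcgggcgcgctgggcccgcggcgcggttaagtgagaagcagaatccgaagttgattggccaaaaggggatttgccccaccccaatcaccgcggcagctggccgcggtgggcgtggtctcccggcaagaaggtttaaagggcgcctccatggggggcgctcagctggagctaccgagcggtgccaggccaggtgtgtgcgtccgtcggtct
A match is a run of letters and not a measured binding site, and no binding was measured here. The second promoter listed for ASNS and the promoters of PSAT1, PHGDH, MTHFD2, PCK2 and TRIB3 held no match in this window. The unmatched genes were SHMT2, PSPH and ALDH1L2.

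Libraries held 23969324 to 29091824 counts with VPS72 and 21345279 to 25352335 with FLAG. VPS72 itself stood at 1161 ± 11.5 CPM (counts scaled by TMM library size) in VPS72 libraries and 23.9 ± 2.70 CPM in FLAG libraries (SD, n = 3 each), in the direction of the labels. All 8 liver cell markers were detected, with summed levels of 20308 to 21151 CPM in VPS72 libraries and 18029 to 18795 CPM in FLAG libraries, and 6 of the 8 rose (edgeR, adjusted p under 0.05), against 0.421% of all tested genes called higher. With the abundance trend removed, the calls of ALB (edgeR, adjusted p = 0.0826) and APOB (0.597) were lost, and APOB lost its call also with library size alone (0.0592), with FLAG replicate 1 left out (0.0773) and with the replicate number in the model (0.0710). The part of this shift in the results that follow was not tested. Of 12 markers of HEK293T cells, fibroblasts, leukocytes and endothelium, 1 was at 0 in every library (NEFL), and their summed level was 10.6 to 13.0 CPM with VPS72 and 10.6 to 12.3 CPM with FLAG. In bulk RNA of this kind, fewer cells of a type and less RNA per cell cannot be told apart. Nothing in the labels ties the replicates to separate cultures. The p-values therefore rest on the spread between these samples alone, and that spread may be technical.

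None of the 9 tested genes passed the threshold, an adjusted p of 0.05 in edgeR's quasi-likelihood test with Benjamini-Hochberg adjustment over all genes, so 0 rose, 0 fell and 9 did not pass. Over all 14253 tested genes 88 passed, or 0.617%, with 0.421% higher and 0.196% lower with VPS72. At an unadjusted p of 0.05 the count for these genes was again 0 of 9 with edgeR, DESeq2 and limma-voom, against 11.5% of all tested genes with edgeR. In none of the 9 did the ranges of the groups lie apart, a condition that 17.2% of tested genes met. Summed over the 10 genes, the level was 609, 613 and 616 CPM in VPS72 libraries, against 601, 618 and 622 CPM in FLAG libraries. The sums differed by -0.129% between the group means, less than the spread within either group. Most of the sum came from PSAT1, SHMT2 and TRIB3, at means of 189, 150 and 135 CPM. It says little of CHAC1, ASNS and ALDH1L2, at 3.17, 1.33 and 0.41 CPM. The median log2 fold change of the 9 genes was -0.0187, where that of all tested genes was -0.00382, and values ran from -0.38 for CHAC1 to 0.06 for PSAT1.

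**Figure D1:**
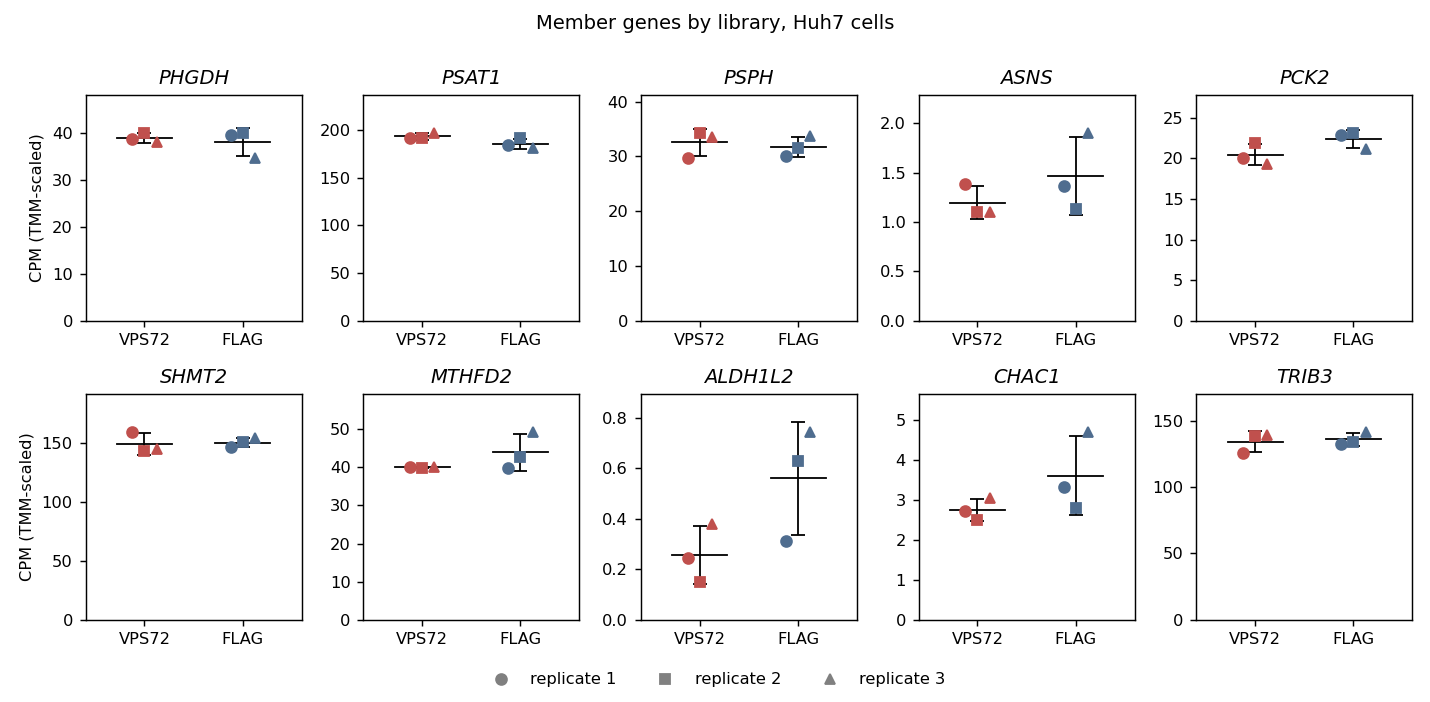
Level of each of the 10 genes in every library, as CPM on TMM-scaled library sizes with axes from 0. Points are libraries, horizontal lines are group means and bars are SD (n = 3 per group). VPS72 and FLAG libraries overlap in all 10 panels, and FLAG replicate 3 is the highest library for ASNS, MTHFD2, ALDH1L2, CHAC1 and TRIB3.

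The serine synthesis enzymes lay at nearly the same level in both groups. PSAT1, the phosphoserine aminotransferase, had 191, 191 and 197 CPM in VPS72 libraries, against 184, 191 and 181 CPM in FLAG libraries. FLAG replicate 2 lay inside the VPS72 range, just above VPS72 replicate 2, and the other FLAG libraries lay below that range. Its log2 fold change was 0.06 ± 0.04 (SE; edgeR, Benjamini-Hochberg adjusted p = 0.624), with a 95% interval from -1.76% to 10.4%.

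PHGDH, the dehydrogenase that commits 3-phosphoglycerate to the pathway, had 38.8, 40.1 and 38.1 CPM with VPS72, against 39.6, 40.0 and 34.6 CPM with FLAG. FLAG replicate 3 was the lowest and the other 5 libraries lay close together. PHGDH had a log2 fold change of 0.03 ± 0.07 (SE; edgeR, adjusted p = 0.92), with an interval from -7.89% to 13.6%. PSPH, the phosphatase that releases serine, had 29.8, 34.3 and 33.6 CPM with VPS72, against 30.1, 31.6 and 33.7 CPM with FLAG. The groups overlapped over most of their range, and the log2 fold change was 0.04 ± 0.08 (SE; edgeR, adjusted p = 0.92), with an interval from -8.72% to 15.1%. Together the 3 enzymes summed to 265 ± 4.56 CPM in VPS72 libraries and 255 ± 6.97 CPM in FLAG libraries (SD, n = 3 each).

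PSPH shares a short stretch of close sequence with the pseudogene PSPHP1, which is named after its values were seen. In GENCODE 29, PSPHP1 aligned to 12.2% of the PSPH transcript at 97.0% identity, and it held 1050 counts over the 6 libraries, against 4863 for PSPH. Their sum was 39.9 ± 2.32 CPM with VPS72 and 38.3 ± 1.98 CPM with FLAG (SD, n = 3 each), and overlapped between the groups as PSPH did alone.

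Among the mitochondrial one-carbon enzymes, SHMT2 was abundant and level, MTHFD2 lay lower with VPS72 without passing the test, and ALDH1L2 was near the limit of detection. SHMT2, the serine hydroxymethyltransferase of mitochondria, had 159, 143 and 144 CPM with VPS72, against 146, 151 and 154 CPM with FLAG. VPS72 replicate 1 was the highest library and the other VPS72 libraries were the lowest. SHMT2 had a log2 fold change of -0.01 ± 0.05 (SE; edgeR, adjusted p = 0.966), with an interval from -7.48% to 6.43%.

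MTHFD2, the mitochondrial methylenetetrahydrofolate dehydrogenase that many tumours raise, had 40.1, 39.9 and 40.0 CPM in VPS72 libraries, against 39.8, 42.6 and 49.3 CPM in FLAG libraries. The VPS72 libraries had an SD of 0.0887 CPM, against 4.87 CPM for the FLAG libraries, and FLAG replicate 1 lay below all of them. The log2 fold change was -0.13 ± 0.08 (SE; edgeR, adjusted p = 0.54), with an interval from -18.3% to 1.94%. Without FLAG replicate 3 it was -0.04. In GENCODE 29, 29.7% of the MTHFD2 transcript used for its length is covered on the opposite strand by exons of SLC4A5, and no source used here says whether counting used strand.

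ALDH1L2, which oxidises formyl-folate in mitochondria and yields NADPH, held 7, 4 and 9 counts in VPS72 libraries, against 8, 16 and 16 counts in FLAG libraries. FLAG replicate 1 lay within the VPS72 range and the other FLAG libraries above it. The filter on low counts left the gene out of the test. With no filter its log2 fold change was -1.10 ± 0.69 (SE; edgeR, adjusted p = 0.689).

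ASNS had the lowest level of the tested genes. It held 40, 29 and 26 counts in VPS72 libraries, against 35, 29 and 41 counts in FLAG libraries, or 1.19 ± 0.169 CPM with VPS72 and 1.47 ± 0.395 CPM with FLAG (SD, n = 3 each). FLAG replicate 3 was the highest library at 1.91 CPM, and the other FLAG libraries lay within the VPS72 range. The log2 fold change was -0.29 ± 0.35 (SE; edgeR, adjusted p = 0.827), with an interval from -51.1% to 37.6%, so at this depth the ASNS level is known far less closely than that of PSAT1 or SHMT2. Without FLAG replicate 3 the value was -0.06.

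The ASNS count is uncertain for a reason that annotation shows. In GENCODE 29, 84.3% of the bases of the principal ASNS transcript also belong to exons of AC079781.5, a non-coding transcript on the same strand, and RefSeq lists the read-through locus CZ1P-ASNS over the same stretch. Neither name has a row in the count table, so neither was analysed here. The pseudogene ASNSP1, named after its values were seen, aligned to 81.4% of the ASNS transcript at 91.5% identity and held 808 counts over the 6 libraries, against 200 for ASNS. ASNSP1 had 3.47, 4.54 and 5.11 CPM in VPS72 libraries, against 5.73, 5.29 and 8.60 CPM in FLAG libraries. The VPS72 libraries were all below the FLAG libraries, as in 8.47% of tested genes, and the log2 fold change was -0.58 ± 0.21 (SE; edgeR, adjusted p = 0.27). ASNS and ASNSP1 together stood at 5.57 ± 0.673 CPM with VPS72 and 8.01 ± 2.19 CPM with FLAG (SD, n = 3 each). The sums were 4.86, 5.64 and 6.20 CPM in VPS72 libraries, against 7.09, 6.43 and 10.5 CPM in FLAG libraries. All VPS72 sums thus lay below the FLAG sums, a position that 8.47% of single tested genes held, whereas ASNS alone overlapped. The sum was not put to the edgeR test. How the authors' counting shared reads among these loci was not tested.

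PCK2, the mitochondrial phosphoenolpyruvate carboxykinase, had 20.1, 21.9 and 19.4 CPM in VPS72 libraries, against 22.9, 23.2 and 21.2 CPM in FLAG libraries. VPS72 replicate 2 lay above FLAG replicate 3, and the groups otherwise lay apart. PCK2 had a log2 fold change of -0.13 ± 0.09 (SE; edgeR, adjusted p = 0.616), with an interval from -19.9% to 3.79%. It ran from -0.18 to -0.10 over the leave-outs of single libraries.

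CHAC1 had the lowest fold change of the tested genes and TRIB3 was level. CHAC1 had 2.71, 2.50 and 3.04 CPM with VPS72, against 3.31, 2.78 and 4.70 CPM with FLAG. FLAG replicate 2 fell within the VPS72 range, and FLAG replicate 3 stood above the other 5 libraries. The log2 fold change was -0.38 ± 0.24 (SE; edgeR, adjusted p = 0.589), with an interval from -46.0% to 9.09%. It was -0.15 without FLAG replicate 3 and -0.54 without FLAG replicate 2. TRIB3 had 125, 138 and 139 CPM with VPS72, against 133, 134 and 142 CPM with FLAG, and the groups overlapped. Its log2 fold change was -0.02 ± 0.05 (SE; edgeR, adjusted p = 0.939), with an interval from -8.15% to 6.09%.

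**Figure D2:**
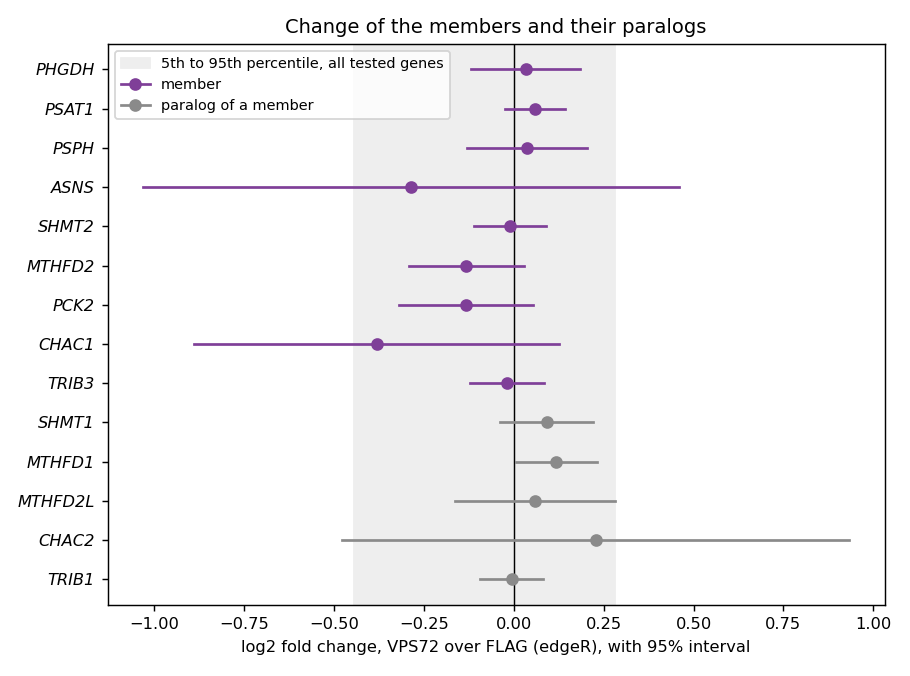
Log2 fold change of VPS72 over FLAG (x axis) with its 95% interval, from edgeR, for the 9 tested genes and 5 tested paralogs. The grey band spans the 5th to 95th percentile of the fold changes of all 14253 tested genes, -0.45 to 0.28. Intervals of the 9 genes all include 0 and are widest for ASNS and CHAC1, the genes with the fewest counts.

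Without FLAG replicate 3 the log2 fold changes of CHAC1, ASNS and MTHFD2 lay nearer to 0, while those of PCK2 (-0.17) and PSPH (0.08) lay farther from it. It was the highest of 6 libraries for 5 of the 10 genes. Its level was 1.54 times the mean of the other FLAG libraries for CHAC1, 1.52 times for ASNS, 1.58 times for ALDH1L2 and 1.20 times for MTHFD2. For PSAT1 and PHGDH it was the lowest of 6 libraries, at 0.963 and 0.869 times that mean. It was also the shallowest library, at 21345279 counts. What set this library apart was not tested.

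**Figure D3:**
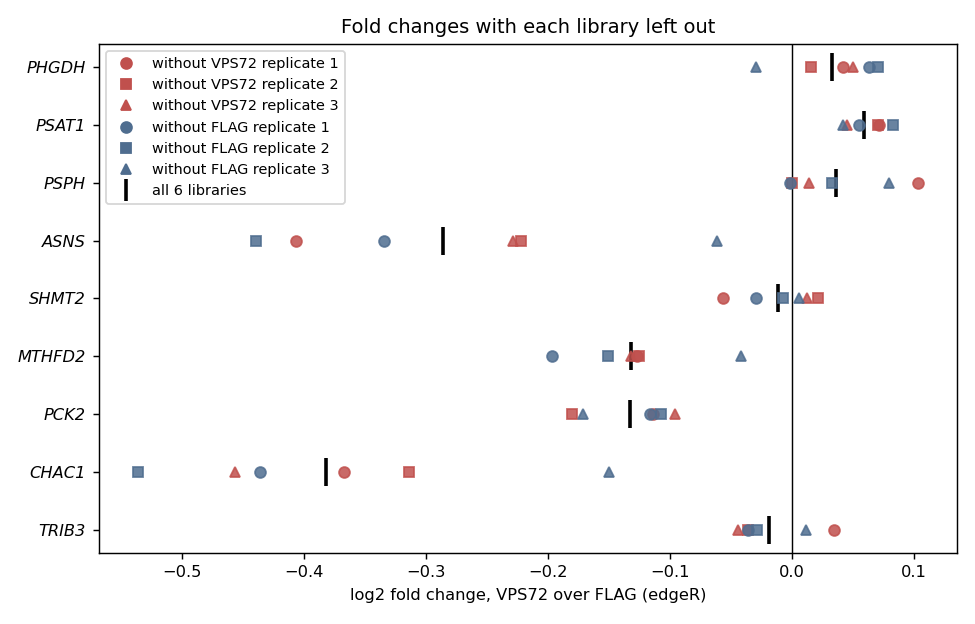
Log2 fold change of VPS72 over FLAG (x axis, edgeR) for the 9 tested genes with all 6 libraries (black bars) and with each library left out (coloured points). Leaving out FLAG replicate 3 moved CHAC1, ASNS and MTHFD2 nearest to 0, to -0.15, -0.06 and -0.04.

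Per length of transcript, the genes spanned a wide range of levels, in the same order of group means with VPS72 and with FLAG. Levels were scaled by the length of the principal transcript in GENCODE 29, and the isoform in use was not measured. PSAT1 led at 88.3 ± 1.57 CPM per kilobase with VPS72 and 84.8 ± 2.44 with FLAG (SD, n = 3 each). SHMT2 followed with a mean of 59.0 over the 6 libraries and TRIB3 with 54.0 CPM per kilobase, and their ranges of 56.5 to 62.8 and 50.2 to 56.6 CPM per kilobase touched. PHGDH, at 14.9 CPM per kilobase, and PSPH, at 14.8, could not be ordered, nor could MTHFD2 at 9.41 and PCK2 at 9.09. CHAC1 at 2.03, ASNS at 0.565 and ALDH1L2 at 0.0543 CPM per kilobase came last, and the ASNS value rests on the uncertain count described above. The first enzyme of serine synthesis and the last thus had near equal levels per length, with the aminotransferase between them several-fold higher.

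Paralogs of these genes act in other compartments or carry related activities, and 0 of the 5 tested passed (edgeR; 1 at an unadjusted p of 0.05, and 0 with limma-voom or among the 3 with an adjusted p in DESeq2). Of all tested genes 0.617% passed with edgeR and 11.5% had an unadjusted p under 0.05. SHMT1, the cytosolic hydroxymethyltransferase, had a log2 fold change of 0.09 ± 0.06, and MTHFD1, the trifunctional cytosolic folate enzyme, of 0.12 ± 0.05 (SE; edgeR, adjusted p = 0.617 and 0.405). MTHFD2L, the mitochondrial relative of MTHFD2, had 0.06 ± 0.10, CHAC2 had 0.23 ± 0.33 and TRIB1 had -0.01 ± 0.04. TRIB2 was at 0 in every library. PCK1, the cytosolic carboxykinase of gluconeogenesis, held 11 counts over all 6 libraries, and ALDH1L1, the cytosolic formyl-folate dehydrogenase of liver, held 3, so neither was tested. The detected carboxykinase was thus PCK2.

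Count ratios within a library do not depend on library scaling. The log2 ratio of SHMT2 to SHMT1 was 1.46 ± 0.13 with VPS72 and 1.56 ± 0.07 with FLAG (SD, n = 3 each). The difference was -0.11 (exact permutation test, two-sided p = 0.2, 0.333 adjusted over 5 pairs), and ran from -0.18 without VPS72 replicate 1 to -0.05 without VPS72 replicate 2. The log2 ratio of MTHFD2 to MTHFD1 was -0.91, -1.09 and -1.03 in VPS72 libraries, against -0.95, -0.77 and -0.57 in FLAG libraries. It lay lower with VPS72 by its mean, with FLAG replicate 1 below VPS72 replicate 1, and the difference was -0.25 (exact permutation test, two-sided p = 0.2, 0.333 adjusted), or -0.15 without FLAG replicate 3. CHAC1 over CHAC2 differed by -0.42 (exact p = 0.4, 0.5 adjusted), with VPS72 replicate 2 far above the other VPS72 libraries. Leaving out VPS72 replicate 1, 2 or 3 gave -0.25, -0.88 or -0.12. With 3 libraries against 3, this test cannot give a p below 0.1. The ratios to PCK1 and ALDH1L1 rest on paralog counts near 0 and depend on the 0.5 counts added before division. Their differences were -0.77 (exact p = 0.6) and -1.48 (exact p = 0.2).

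**Figure D4:**
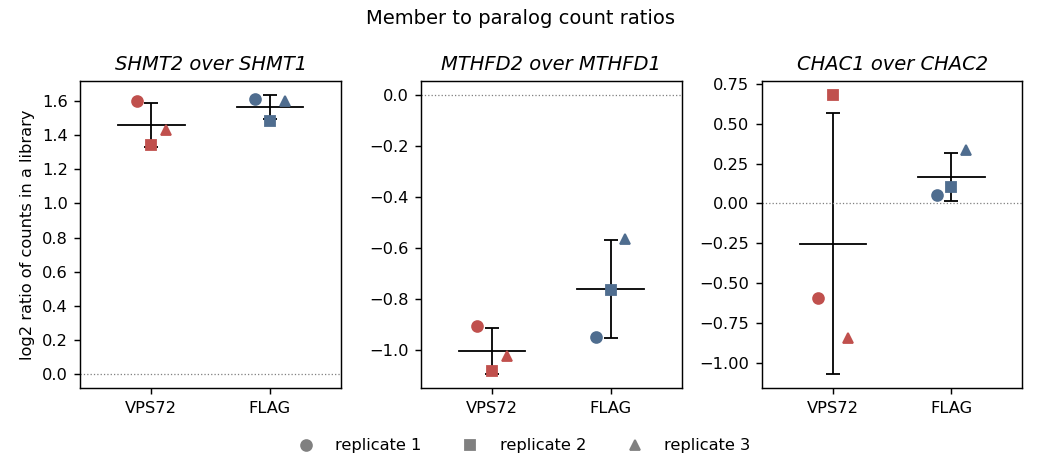
Log2 ratio of counts within each library (y axis, separate scale in each panel) for SHMT2 over SHMT1, MTHFD2 over MTHFD1 and CHAC1 over CHAC2. Points are libraries, horizontal lines are group means and bars are SD (n = 3 per group), and the groups overlap in all 3 panels.

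Around these genes, enzymes of the same pathways did not pass with edgeR or limma-voom. Over all tested genes 0.617% passed with edgeR and 11.5% had an unadjusted p under 0.05, the shares to set beside the counts in these lists. DESeq2 called none of those to which it gave an adjusted p. It gave no adjusted p to 7 of 11 mitochondrial, 3 of 12 cytosolic and 5 of 11 methionine genes. The same held for 4 of 9 serine-use and glutathione genes, and 1 of 7 asparagine and glutamine genes. Of 11 tested genes of the mitochondrial folate cycle and glycine cleavage outside the 10, 0 passed (edgeR; 2 at an unadjusted p of 0.05), with a median log2 fold change of 0.02. GLDC, the glycine decarboxylase, was the most abundant, at 114 ± 5.83 CPM with VPS72 and 102 ± 1.65 CPM with FLAG (log2 fold change 0.16 ± 0.05; edgeR, adjusted p = 0.166). SFXN1, the mitochondrial serine carrier, had 0.12 ± 0.05 and DLD 0.01 ± 0.04. Of 12 tested cytosolic one-carbon and purine genes 0 passed (3 at an unadjusted p of 0.05), with a median of 0.03, and PAICS, ATIC and GART of purine synthesis had 0.04, 0.01 and -0.12.

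The methionine cycle and transsulfuration list had 0 of 11 past the threshold (2 at an unadjusted p of 0.05) and a median of 0.03, with MAT2A, which makes S-adenosylmethionine, at 0.07, AHCY at 0.08 and AHCYL1 at 0.06. The shares of all tested genes were again 0.617% past the threshold and 11.5% at an unadjusted p of 0.05 (edgeR). CTH, the transsulfuration enzyme that releases cysteine, is itself an ATF4 target and had the lowest adjusted p of that list. It had 14.2, 13.7 and 12.5 CPM with VPS72, against 17.0, 18.7 and 18.9 CPM with FLAG, with no overlap, and a log2 fold change of -0.44 ± 0.10 that missed the threshold (SE; edgeR, adjusted p = 0.0616; named after its values were seen). Of 9 tested genes of serine use and glutathione synthesis 0 passed (1 at an unadjusted p of 0.05). SPTLC1 of sphingolipid synthesis was at 0.05, and of glutathione synthesis GCLC was at -0.07 and GCLM at 0.05. Of 7 tested asparagine, glutamine and glutamate genes 0 passed (1 at an unadjusted p of 0.05), with GLUL, glutamine synthetase, at 0.07 and GLUD1, glutamate dehydrogenase, at 0.10.

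Of 14 tested regulators of these targets, 6 had a log2 fold change above 0 and 8 below it. At an unadjusted p of 0.05 in edgeR the count was 4 of 14, against 11.5% of all tested genes. ATF4 mRNA stood at 162 ± 9.42 CPM with VPS72 and 166 ± 9.51 CPM with FLAG (log2 fold change -0.03 ± 0.05; edgeR, adjusted p = 0.872). ATF4 is controlled mainly in translation, which mRNA counts do not measure. Its partners DDIT3, CEBPG and CEBPB were lower without passing. DDIT3, the stress factor CHOP, had -0.31 ± 0.12, CEBPG had -0.22 ± 0.06 and CEBPB had -0.22 ± 0.10 (edgeR, adjusted p = 0.301, 0.149 and 0.423). ATF5, JDP2 and NUPR1 of the same list lay above 0, at 0.10, 0.13 and 0.14, and did not pass (named after their values were seen). VPS72 and FLAG libraries did not overlap for DDIT3 or CEBPG and did for CEBPB. Among the 14 regulators, VPS72 libraries lay below all FLAG libraries for 3, against 8.47% of tested genes, and above them for 0, against 8.76%. The regulators too were listed with earlier results of these data known, so these counts are no independent evidence of a direction.

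Of these regulators 1 fell, PPP1R15A, which encodes the GADD34 subunit that directs a phosphatase to eIF2 alpha and is itself induced through ATF4. It had 105, 115 and 117 CPM with VPS72, against 139, 137 and 136 CPM with FLAG, with no overlap. Its log2 fold change was -0.29 ± 0.05 (SE; edgeR, adjusted p = 0.00868), or -18.1%, and the call was lost without FLAG replicate 1 (adjusted p = 0.088) or VPS72 replicate 1 (0.059). The constitutive counterpart PPP1R15B had 0.01 ± 0.05, and the kinase EIF2AK1 had 0.06 ± 0.04.

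Of 29 tested genes in a list of other ATF4 targets 1 fell, the cystine transporter SLC7A11, and 28 did not pass, with a median of -0.10. At an unadjusted p of 0.05 in edgeR the count was 12 of 29, against 11.5% of all tested genes. The VPS72 libraries lay below all FLAG libraries for 11 of the 29, against 8.47% of tested genes, and above them for 2, against 8.76%. The list was drawn up with earlier results of these data known, so these counts are no independent evidence of a direction, and its difference from the 10 genes was not tested. SLC7A11 had a log2 fold change of -0.48 ± 0.05 (SE; edgeR, adjusted p = 0.000542). The most abundant of the list were SLC38A2, a glutamine and alanine transporter, at -0.02 ± 0.03, GARS1, the glycyl-tRNA synthetase, at -0.13 ± 0.04, and AARS1, the alanyl-tRNA synthetase, at -0.05 ± 0.04, none of which passed (edgeR, adjusted p = 0.853, 0.141 and 0.692).

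**Figure D5:**
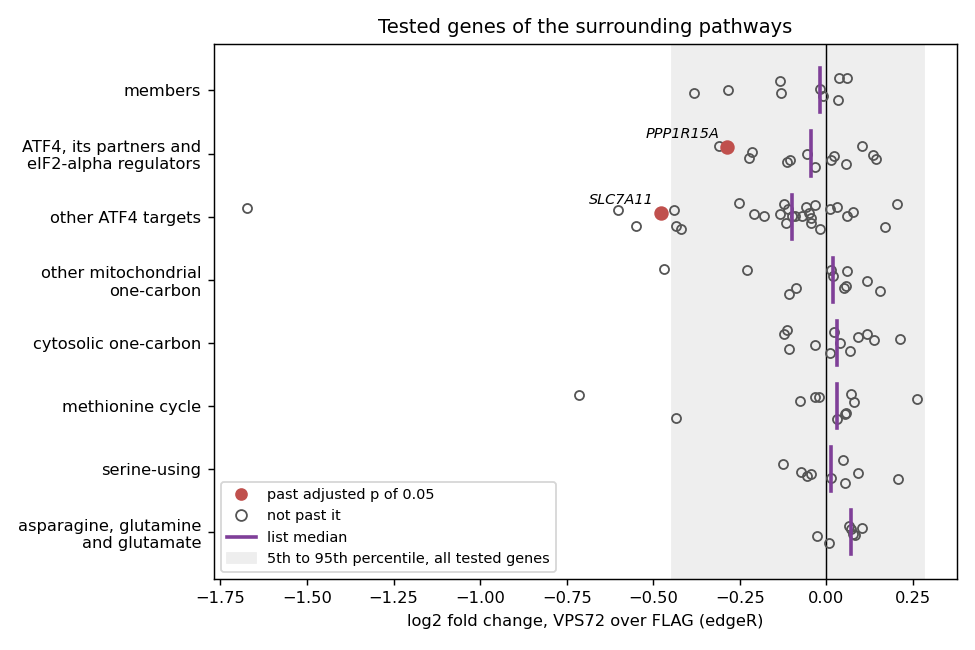
Log2 fold change of VPS72 over FLAG (x axis, edgeR) for the tested genes of each list. Filled points passed an adjusted p of 0.05, open points did not, purple bars are list medians, and the grey band is the 5th to 95th percentile of all 14253 tested genes. PPP1R15A and SLC7A11 are the filled points, at -0.29 and -0.48, and no gene among the members is filled.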

How the data were processed

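The table that the authors deposited holds estimated counts, a whole number for each gene and library, not normalized. Per the submitters' processing notes the tools were STAR, RSEM and limma, with hg19 and hg38 both listed as builds. No role, order or version is stated, and no source used here gives the build and annotation behind the table. Groups and replicate numbers came from the sample titles. The 10 genes and all gene lists were chosen with earlier results of these data known, and the lists were assembled from general knowledge of the pathways.

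Genes were filtered with filterByExpr (minimum count 10, minimum total 15), which left 14253 genes holding 99.925% of counts. Libraries were scaled with TMM and compared in R 4.3.3 by the quasi-likelihood test of edgeR 4.0.16. Its p-values were adjusted over all tested genes by the Benjamini-Hochberg method, and the threshold was 0.05. The common coefficient of variation was 7.24%. The test was checked on simulated data. Standard errors are the fold change divided by the square root of F, and 95% intervals use the same test's degrees of freedom. Libraries of a group differed by more than sampling noise (chi-square per degree of freedom 4.70 to 7.69), so none was treated as a repeat. Paralog ratios used counts plus 0.5 and an exact permutation test (scipy 1.17.1). Lengths, exon overlaps and pseudogene alignments (blastn 2.17.0) used GENCODE 29. Promoters came from RefSeq.

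Named genes were the 10, their paralogs, ATF4, DDIT3, CEBPB, CEBPG, VPS72, and of each list every gene past the threshold and the 3 most abundant; of the marker lists only sums, counts and lost calls are given, and 1 gene that the rule names is not reported here. The alternatives were other scalings and filters, DESeq2 (1.42.0), limma-voom (limma 3.58.1), a replicate block, VPS72 left out of the library size, removal of an abundance trend, a threshold of 0.01, and each library left out.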

Additional observations from a re-analysis of the deposited data

How the results depend on the processing

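Of the 9 tested genes 0 passed under every alternative run, with 8 tested under the stricter filter and 10 with no filter. ALDH1L2 also entered the test without FLAG replicate 1 or any 1 VPS72 replicate, at log2 fold changes of -1.46 to -0.84 (edgeR, adjusted p 0.464 to 0.769). Only FLAG replicates 2 and 3, at 16 counts each, held the minimum count of 10 for this gene. It thus entered only through the group where it was high, and these fold changes are no evidence of a direction. At an unadjusted p of 0.05 in edgeR, 1 of 9 counted with library size alone, against 1707 of all 14253. Without FLAG replicate 1 it was 2 of 10, against 1290 of 14558, and without FLAG replicate 2 it was 1 of 9, against 1787 of 14583. DESeq2 gave no adjusted p to 4 of the 9. The number of all genes changed was 88 of 14253. It was 264 of 24833 with no filter, and 249 with DESeq2, which gave no adjusted p to 8566 of the 14253. It was 54 with the abundance trend removed, 32 at a threshold of 0.01, and 25 to 100 with single libraries left out (leaving out VPS72 replicate 1, 2 or 3 gave 35, 52 or 56, and leaving out FLAG replicate 1, 2 or 3 gave 25, 100 or 42). With the replicate number as a block it was 32. Same-numbered libraries did not deviate together (correlations of -0.209, -0.0722 and 0.157), not every library correlated best with its own number, and the samples share only a number. Pairing leaves a mean difference in a ratio unchanged by construction (-0.11 for SHMT2, -0.25 for MTHFD2). Library size alone gave 32 higher and 54 lower genes, against 60 and 28 with TMM, and moved the median of all genes to -0.0352.

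Fold changes near 0 turned sign when a library was left out, with log2 ranges of -0.0297 to 0.0703 for PHGDH, -0.00184 to 0.104 for PSPH, -0.0569 to 0.0210 for SHMT2, -0.0439 to 0.0341 for TRIB3, -0.0382 to 0.124 for MTHFD2L, -0.15 to 0.60 for CHAC2, -0.0257 to 0.0142 for TRIB1, -0.0784 to 0.000617 for ATF4, -0.00752 to 0.0525 for PPP1R15B and -0.0284 to 0.0389 for ATIC. With library size alone PPP1R15B was -0.0178, ATIC -0.0218 and DLD -0.0197, and with the abundance trend removed PPP1R15B was -0.00877 and ATIC -0.0160. CEBPG passed with no filter (edgeR, adjusted p = 0.0113) and GARS1 with DESeq2 (0.0237), which called 4 of the other ATF4 targets, against 1 with edgeR, adding SESN2 and SLC3A2. DESeq2 gave no adjusted p to 11 of these 29 targets. At an unadjusted p of 0.05 it counted 11 of the 29, against 12 with edgeR. The cause of the added calls was not tested. Counts were fewest for ASNS, CHAC1 and ALDH1L2, and for ASNS the sharing of reads with other loci was not tested.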

Other observations

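The composite element searched in the promoters is not limited to the 10 genes. Of 10625 tested genes with a RefSeq promoter of that window, 300 held TGATGNAA on either strand. Of these 300, 4 passed the threshold (edgeR quasi-likelihood, Benjamini-Hochberg adjusted), or 1.33%, against 64 of the 10625, or 0.602%. The 4 are named after their values were seen. ATF3, a stress factor of the ATF family, fell (log2 fold change -0.85 ± 0.09), while AGT, angiotensinogen, rose by 0.23 ± 0.04, RBP4, the retinol carrier of plasma, by 0.22 ± 0.03, and FBLN5, an elastic fibre protein, by 0.40 ± 0.06 on the log2 scale. The median log2 fold change was -0.0198 for the genes with the letters and -0.00271 for all with a promoter.

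Of the pseudogenes named after the 10 genes in the table, ASNSP1 and PSPHP1 held reads in every library. The other ASNS, PSAT1 and MTHFD2 pseudogenes held at most 6 counts in any library.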
